A study of Mus musculus with 4 samples.

Results

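The T cell integrins described here are the genes Itga1, Itga2, Itga4, Itga6, Itgae, Itgal, Itgav, Itgb1, Itgb2 and Itgb7. They were taken by symbol from 2 tables of gene expression, and make up 10 of the 23259 genes named in either table. The libraries came from mouse T cells in 2 separate experiments, with 1 library per group and 4 in all. In the first, regulatory T cells (Treg) were purified from the spleen of Balb/c mice with a Foxp3-hCD2 reporter, by the human CD2 that the reporter shows on cells expressing Foxp3. One group was untreated, and the other drank water with 3% dextran sulfate sodium (DSS), a polymer that injures the colon epithelium, for 7 days. In the second, C57BL6 mice of wild type gave naive CD4 T cells, which received either a mock vector or a Sox12 vector. Sox12 belongs to the SoxC transcription factors. The labels do not give the age or number of the mice, the time after transduction, or whether transduced cells were sorted.

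Integrins are receptors made of 1 alpha and 1 beta chain, and neither chain reaches the cell surface well without the other. They hold a T cell to vessel walls, to other cells and to the matrix, and they bind strongly only after signals from inside the cell change their shape. On T cells, the product of Itgal pairs with that of Itgb2 to form LFA-1, which binds the ICAM proteins. Itga4 pairs with Itgb1 as VLA-4, a receptor for VCAM-1 and fibronectin, or with Itgb7 as LPAM-1, which binds MAdCAM-1 on vessels of the gut. Itgae, known as CD103, pairs with Itgb7 and binds E-cadherin on epithelium.

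In Treg, the 9 integrins in the table differed little between the 2 libraries. Itgae was the member farthest from 0, lower in the DSS library at 12.4 against 16.4 fragments per kilobase of transcript, scaled to the size of the library (FPKM), a ratio of 0.759. In CD4 T cells with the Sox12 vector, 6 of the 7 integrins above the filter were lower than with the mock vector, led by Itgb7 with a ratio of 0.610, and Itga6 was higher with a ratio of 1.48. None of the members past the filter on low values, a mean of at least 1 FPKM, reached a 2-fold difference in either experiment. With 1 library per group there is no spread between samples, so no test was made and no difference below has a replicate check. In bulk RNA, fewer cells of a type cannot be told apart from less RNA per cell.

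The promoters of the 3 genes for VLA-4 and LPAM-1 are shown first. These genes are among the 6 of 7 members past the filter that were lower with the Sox12 vector, so their change does not single them out. Itgav, whose promoter is not shown, had a change of -0.22 against -0.19 for Itga4. Each promoter is the 250 bases before the start of the gene, from RefSeq on GRCm38.p6, written 5′ to 3′ on the strand of the gene. That table held 6 of the 10 members. Capitals mark a match to TGTGGT or its reverse complement ACCACA, the core of sites for Runx factors. Itga4 is at chr2:79255176-79255425 on the plus strand, Itgb1 at chr8:128685404-128685653 on the plus strand and Itgb7 at chr15:102231936-102232185 on the minus strand.
Itga4: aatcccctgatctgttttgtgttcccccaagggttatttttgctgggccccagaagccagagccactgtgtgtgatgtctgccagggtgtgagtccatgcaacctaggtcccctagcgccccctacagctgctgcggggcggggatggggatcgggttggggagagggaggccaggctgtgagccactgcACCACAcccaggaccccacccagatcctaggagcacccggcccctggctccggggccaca
Itgb1: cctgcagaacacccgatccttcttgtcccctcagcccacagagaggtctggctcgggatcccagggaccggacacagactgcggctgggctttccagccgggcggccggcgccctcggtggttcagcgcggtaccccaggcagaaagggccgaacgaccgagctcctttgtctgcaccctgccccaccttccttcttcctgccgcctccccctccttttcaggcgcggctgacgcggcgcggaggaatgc
Itgb7: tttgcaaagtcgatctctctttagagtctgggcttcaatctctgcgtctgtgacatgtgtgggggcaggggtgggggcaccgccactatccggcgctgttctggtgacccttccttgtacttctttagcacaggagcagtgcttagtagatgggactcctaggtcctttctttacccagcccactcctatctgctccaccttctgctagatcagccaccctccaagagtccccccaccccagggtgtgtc
The Runx core occurred in 1 of the 6 members' windows, 60 bases before the start of Itga4, and in 14.0% of all 32851 windows of this length. The letters ACAAT or ATTGT, a core shared by sites of Sox factors, occurred in 0 of the 6 windows and in 27.7% of all windows. The letters CCGGAA or TTCCGG, 1 extended form of Ets sites, occurred in 0 of the 6 and in 12.0% of all. Shorter or other forms of Ets sites were not searched. No matches to these 3 patterns overlap in the windows shown. A match is only a match of letters, and its absence says nothing of the factor or of sequence outside the window.

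The level of a gene is its FPKM, which is per length, so that genes can be set side by side within a library. The change is log2(FPKM + 1) in the treated library less that in its control, a scale that understates the change of low genes. A filter on the mean of both libraries, at least 1 FPKM, left 10545 genes in the Treg table and 10822 in the vector table. The middle gene had a change of 0.05 with DSS, where 90% of genes lay between -0.20 and 0.31. With the Sox12 vector it had a change of -0.01, and 90% lay between -0.68 and 0.98. The Treg table lists genes above 1 FPKM in at least 1 library, and the depth of its libraries is unknown. In the vector libraries a level of 1 FPKM stood for about 42.9 (mock) and 44.7 (Sox12) fragments per kb of transcript. The 6 T cell markers measured had a summed level of 1883 and 1856 FPKM in untreated and DSS Treg, and of 1326 and 1039 FPKM with the mock and the Sox12 vector. Sox12 itself had 1.56 and 829 FPKM in the vector libraries, and 0.715 and 1.52 FPKM in untreated and DSS Treg.

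In Treg the 3 beta chains and Itgal were the most abundant members. Itgb7 led with 288 FPKM in untreated Treg and 250 FPKM after DSS, followed by Itgb2, Itgal and Itgb1 between 145 and 188 FPKM in both libraries. Itga4 and Itga6 came next, and Itgae, Itgav and Itga2 were the lowest. This order was the same in both libraries. Summed over the members the level was 947 FPKM in untreated Treg and 878 FPKM after DSS, of which Itgb7 alone made 30.4% and 28.5%. Itga1 was not analysed in Treg.

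**Figure D1:**
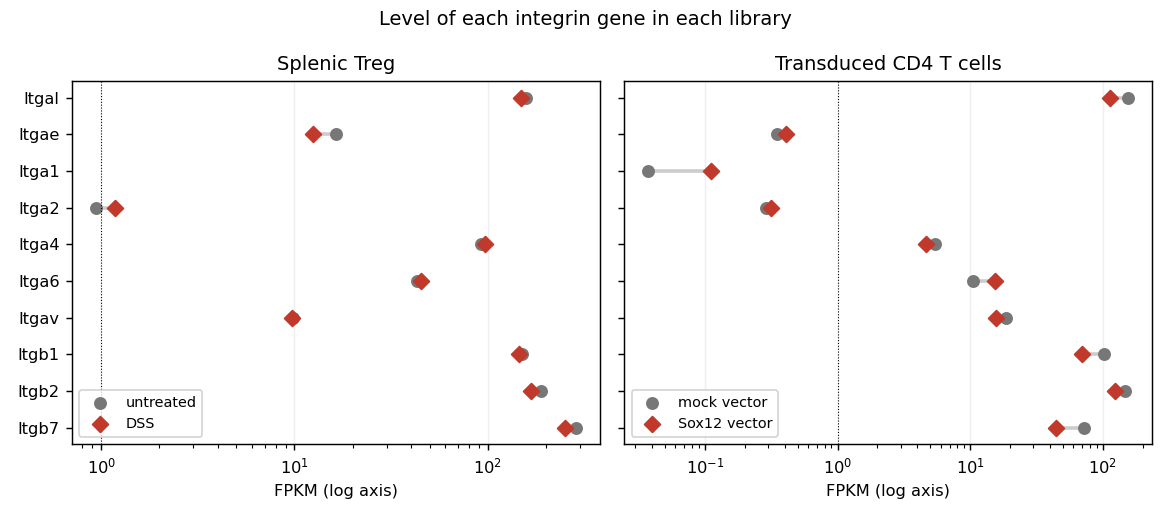
Level of each integrin gene (FPKM, log axis) in the Treg libraries (left) and the transduced CD4 T cell libraries (right), with 1 point per library and a dotted line at the filter of 1 FPKM. The 2 points of a gene lie close together in Treg, with Itgae the widest apart of the genes above the filter in both libraries, and on the right Itga1, below the filter, is the widest apart, followed by Itgb7, Itga6, Itgb1 and Itgal.

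Of the 9 members in the Treg table, all of which passed the filter, 3 were higher and 6 lower in the DSS library. Itga2, 1 of the 3 higher, was listed through the DSS library alone, so its direction was fixed by the listing. Over all genes past the filter 66.1% were higher and 33.9% lower, a split that became even when the median change was set to 0, with the members still at 3 and 6. At a mean of at least 5 FPKM, which leaves Itga2 out, 2 members were higher and 6 lower. The shares of all genes were then 66.5% and 33.5%. The median change of the members was -0.06, against 0.05 over all genes. A change of at least 1 in size, which is a 2-fold difference on this scale, was found in 0 of the 9 members and in 0.266% of all genes. With counts this small and 1 library per group, the split of the members is a description of these libraries.

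Itgae had 16.4 FPKM in untreated Treg and 12.4 FPKM after DSS, a change of -0.37. That lay at percentile 1.37 of all genes, counted from the lowest, and 0.2% of the 500 genes of nearest mean level lay below it. Counted in either direction, 2.6% of those 500 genes were at least as far from 0. Its partner Itgb7 had 288 and 250 FPKM, a change of -0.20 at percentile 5.20. Among genes of like level, 5.8% were lower than Itgb7, and 10.4% were at least as far from 0. The 2 chains of the receptor for E-cadherin were therefore both lower in the DSS library, and Itgae stood at 5.70% of the level of Itgb7 in untreated and 4.97% in DSS Treg.

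The other partner of Itgb7 went the other way by a small amount. Itga4 had 91.9 and 96.4 FPKM in untreated and DSS Treg, a change of 0.07 at percentile 56.0, close to the middle of all genes. Relative to Itgb7 it stood at 32.0% and 38.5%, so the level of alpha 4 per beta 7 was 1.20 times as high in the DSS library. The summed level of both alpha partners of Itgb7 was 108 FPKM in untreated Treg and 109 FPKM after DSS. Itgb7 thus exceeded the sum of its alpha partners 2.65 and 2.30 times, with Itga4 counted in full although it also pairs with Itgb1.

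The LFA-1 chains were both slightly lower with DSS. Itgal had 159 and 149 FPKM, a change of -0.09 at percentile 14.6. Itgb2, the common beta chain of the leukocyte integrins, had 188 and 168 FPKM, a change of -0.16 at percentile 7.21. The 2 chains stayed near equal in level, with Itgal at 84.4% of Itgb2 in untreated and 88.7% in DSS Treg.

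Itgb1, the beta chain of the VLA group, had 151 FPKM in untreated Treg and 145 FPKM after DSS, a change of -0.06 at percentile 19.5. Its alpha partner Itga6, a laminin receptor chain, had 43.1 and 45.4 FPKM, a change of 0.07. Itgav, the chain of the vitronectin receptors, had 9.80 and 9.74 FPKM, and its change of -0.01 was the smallest of the members. Itga2, a collagen receptor chain that is also a marker of NK cells and basophils, had 0.943 and 1.18 FPKM, a change of 0.17. Its entry in the table rests on the DSS library, the only one of the pair above the listing level. The alpha members that pair with Itgb1 summed to 146 and 153 FPKM, that is 96.5% and 105% of Itgb1. With its other alpha partners in the table the sum was 153 and 160 FPKM, or 101% and 110%. Itga4 and Itgav, which also pair with other beta chains, are counted in full in these sums. The sums therefore do not give the share of alpha chains that pairs with Itgb1.

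**Figure D2:**
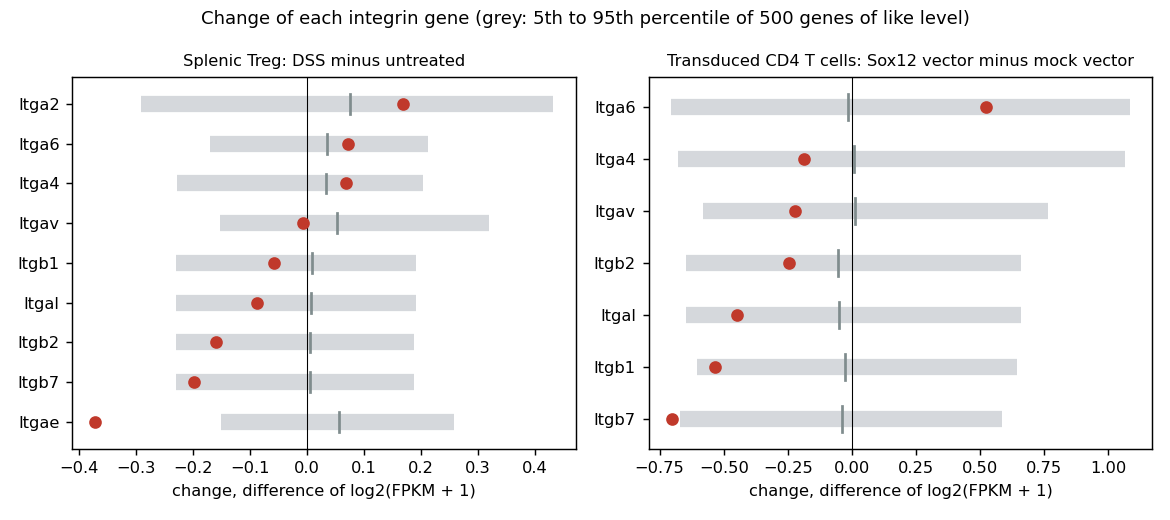
Change of each integrin gene past the filter, as the difference of log2(FPKM + 1), for DSS minus untreated Treg (left) and Sox12 minus mock vector (right), each point being 1 gene. Grey bars span the 5th to the 95th percentile of the 500 genes of nearest mean level and the tick is their median; Itgae on the left and Itgb7 on the right lie below their bars, and the other points lie within theirs.

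Markers of other cells moved with treatment in the same tables. Of the basophil and mast cell list 4 of 6 genes passed the filter and all 4 were higher in the DSS library, with a summed level over the list of 8.20 FPKM in untreated Treg and 29.9 FPKM after DSS. The erythroid list was higher in 10 of 10 genes, at 518 and 794 FPKM. The 5 markers of NK and CD8 T cells past the filter, of 10, were lower, with a sum of 34.7 and 29.8 FPKM over the 6 in the table, and CD8 T cells are known to carry CD103. The plasma cell list, whose cells can carry LPAM-1, was lower in 5 of 5 genes past the filter, of 7, at 369 and 312 FPKM. The macrophage and monocyte list, cells rich in Itgb2, had 4 higher and 1 lower of 5 genes past the filter, of 9, at 22.5 and 23.7 FPKM. Of the neutrophil and myeloid granule list, whose cells also carry Itgb2, 3 of 7 genes passed and were higher, with a sum of 20.2 and 29.2 FPKM over the 5 in the table. None of the genes of these lists that are in the table was at 0. Gata2, Ms4a2 and Fcer1a of the basophil and mast cell list were above 1 FPKM in the DSS library alone. Klrd1 of the NK and CD8 T cell list, and S100a8 and S100a9 of the neutrophil list, were above it in the untreated library alone. The direction of these genes was therefore fixed by the listing. The part of these other cells in the values of Itgae, Itga2 and the other members was not tested.

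In the transduced CD4 T cells Itgal and Itgb2 were the highest members, at 156 and 148 FPKM with the mock vector and 114 and 124 FPKM with the Sox12 vector. Itgb1 and Itgb7 followed. Itgav, Itga6 and Itga4 lay between 4.65 and 18.6 FPKM, and Itgae, Itga2 and Itga1 below 1 FPKM in both libraries. The order differed between the libraries only in that Itgal and Itgb2 changed places. The summed level of the 10 members was 513 FPKM in mock-transduced and 390 FPKM in Sox12-transduced cells, a ratio of 0.759.

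Of the 10 members, 7 passed the filter, with 1 higher and 6 lower in the Sox12 vector library. Over all genes past the filter 48.9% were higher and 51.1% lower. The median change of the members was -0.25, against -0.01 over all genes. A change of at least 1 in size was found in 0 of the 7 members and in 6.76% of all genes. The 3 members below the filter had higher values with the Sox12 vector, by more than counting error only for Itga1, so that without the filter 4 of 10 were higher and 6 lower.

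Itgb7 had 72.6 FPKM in mock-transduced and 44.3 FPKM in Sox12-transduced cells, a change of -0.70 at percentile 4.68 of all genes. Of the 500 genes of nearest level 4.4% lay below it. It rested on about 8354 and 5311 fragments, and the 95% interval of its ratio of 0.610 was 0.589 to 0.632 by an exact binomial calculation. Such intervals cover counting error alone, not differences between preparations or mice. The intervals of all 6 lower members lay below 1.

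Itgb1 had 102 FPKM in mock-transduced and 70.1 FPKM in Sox12-transduced cells, a change of -0.53 at percentile 8.15 and a ratio of 0.688. Itga4 was low in both libraries of this experiment, at 5.43 and 4.65 FPKM, a change of -0.19 at percentile 28.1. It stood at 5.33% of Itgb1 and 7.48% of Itgb7 with the mock vector, and at 6.63% and 10.5% with the Sox12 vector. In each library the alpha 4 chain was the scarcer partner of VLA-4 and LPAM-1 at the level of RNA. The 2 tables were made separately, and these shares and those in Treg are given only as values within each table.

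Itga6 was the 1 member past the filter that was higher with the Sox12 vector. It had 10.5 FPKM in mock-transduced and 15.5 FPKM in Sox12-transduced cells, a change of 0.52 at percentile 88.3. Its ratio of 1.48 had an interval of 1.39 to 1.57 from counting. Among the 500 genes of like level 20.2% were at least as far from 0, so a difference of this size was common between these libraries. For the lower members the same share was 8% for Itgb7, 13.2% for Itgb1 and 18.2% for Itgal. It was 37.8% for Itgb2, 45.4% for Itgav and 56.4% for Itga4. With Itga6 higher and Itgb1 lower, Itga6 went from 10.3% to 22.1% of the level of Itgb1. The alpha members that pair with Itgb1 summed to 34.8 and 36.3 FPKM, which is 34.2% of Itgb1 with the mock vector and 51.8% with the Sox12 vector. With its other alpha partners in the table the sum was 44.5 and 41.5 FPKM, so that it was lower and not higher with the Sox12 vector, and 43.6% and 59.2% of Itgb1. Itga4 and Itgav are again counted in full.

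The LFA-1 chains were both lower with the Sox12 vector. Itgal had 156 and 114 FPKM, a change of -0.45 at percentile 10.9, and Itgb2 had 148 and 124 FPKM, a change of -0.25 at percentile 22.5. Itgal stood at 106% of Itgb2 with the mock vector and at 91.6% with the Sox12 vector. Both lay inside the range of 90% of the genes of like level.

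The remaining 3 members were rare. Itga1, a collagen receptor chain of tissue-resident T cells, had 0.0375 FPKM in mock-transduced and 0.111 FPKM in Sox12-transduced cells, about 18 and 54 fragments. Its ratio of 2.96 had an interval of 1.66 to 5.22 from counting, the only one of these 3 that did not include 1. Itga2 had 0.291 and 0.314 FPKM, about 89 and 100 fragments, and Itgae had 0.347 and 0.411 FPKM, about 57 and 71 fragments. For both, a difference was not detectable at this depth, with intervals of the ratio of 0.802 to 1.45 and 0.832 to 1.72. Itgae stood at 0.479% and 0.927% of the level of its partner Itgb7.

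**Figure D3:**
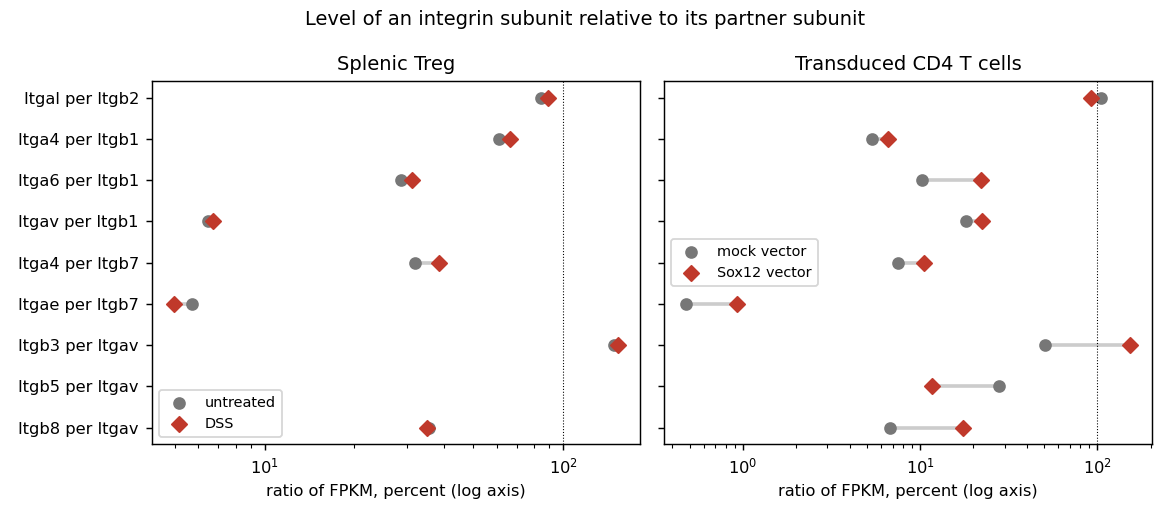
Level of an integrin subunit as a percentage of the level of a subunit it pairs with (ratio of FPKM, log axis, dotted line at 100%), with 1 point per library, for Treg (left) and transduced CD4 T cells (right). Itgal and Itgb2 are near equal in all 4 libraries, Itga6 per Itgb1 goes from 10.3% to 22.1% with the Sox12 vector, and Itgb3 per Itgav goes from 50.8% to 154%.

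Itgav, a member that pairs with several beta chains, had 18.6 and 15.7 FPKM, a change of -0.22 at percentile 24.9. Its beta partners outside the members differed more. Itgb3, with which it forms the vitronectin receptor that also binds osteopontin and fibronectin, had 9.42 FPKM in mock-transduced and 24.2 FPKM in Sox12-transduced cells, a change of 1.27. Itgb5 had 5.18 and 1.84 FPKM, a change of -1.12, and Itgb8, whose receptor with Itgav activates TGF-beta, had 1.26 and 2.76 FPKM, a change of 0.73. Per Itgav, Itgb3 went from 50.8% to 154%, Itgb5 from 27.9% to 11.7% and Itgb8 from 6.78% to 17.5%. The counting intervals of the 3 ratios between libraries, 2.45 to 2.69, 0.308 to 0.409 and 1.96 to 2.45, did not include 1. Itgb8 was chosen after its values were seen. In Treg, Itgb3 had 14.5 and 14.9 FPKM and Itgb8 3.50 and 3.40 FPKM in the untreated and the DSS library.

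Those 3 belong to the 16 other integrin subunits of the mouse. Of these 16, 5 passed the filter with the vectors, with 2 higher and 3 lower and a median change of -0.69. The sign of that median depends on the filter, being 0.02 without one and 1.27 when only Itgb3, with a mean of at least 5 FPKM, was left. In Treg 6 of the 16 were listed, with 4 higher and 2 lower, a median of 0.06, and 0 with a 2-fold difference. Itga2b, among the higher, had 0.878 and 1.40 FPKM and is named because it was listed through the DSS library alone. With the Sox12 vector, 4.85% of all genes were higher by a change of at least 1 in size, and 1.91% were lower by as much. Itgam and Itgax, the alpha chains of myeloid cells and also of NK cells, were below the filter at 0.0968 and 0.425 FPKM and at 0.0340 and 0.141 FPKM, values chosen after they were seen.

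Of 20 listed genes for ligands of integrins 8 passed the filter in the vector table, with 3 higher and 5 lower. The change was at least 1 in size in 3 of these 8. Fn1, fibronectin, had 0.553 FPKM in mock-transduced and 11.6 FPKM in Sox12-transduced cells, a change of 3.02. Spp1, osteopontin, had 42.5 and 229 FPKM, a change of 2.40. Both are bound by receptors of Itgav and by VLA-4. Fn1 passed the filter through the Sox12 library alone. Icam5, among the lower, had 1.47 and 0.595 FPKM and is named because it passed through the mock library alone. Lama5, a laminin chain of the kind bound by the receptor of Itga6, had 19.4 and 6.81 FPKM, a change of -1.39. In Treg 5 ligand genes were listed, with 3 higher and 2 lower. Their most abundant were Thy1 at 170 and 166 FPKM and Tgfb1, whose latent form is a ligand of Itgav receptors, at 75.2 and 78.7 FPKM.

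The genes that switch integrins on and link them to actin showed no shared direction. Of these, 21 passed the filter in the vector table, with 9 higher and 12 lower and a median of -0.03, or 0.03 with equal totals without the 20 highest genes. Rasgrp2, which loads the GTPase Rap1 and so activates integrins in leukocytes and platelets, had 4.86 and 13.7 FPKM. Its change of 1.32 was the only one of at least 1 in size among these 21. In Treg 22 passed, with 14 higher and 8 lower, a median of 0.02 and 0 with a 2-fold difference. With the median change of all genes set to 0, 8 were higher and 14 lower. The most abundant, Rap1b and the adaptor Fyb, had 208 and 220 FPKM and 142.4 and 144.5 FPKM. Genes known to restrain integrins were higher in 4 and lower in 5 of 9 cases in each experiment. Rasa3, which turns Rap1 off, had 18.0 FPKM in mock-transduced and 40.7 FPKM in Sox12-transduced cells, a change of 1.14. A Rap1 activator and a Rap1 inhibitor were thus both at least 2 times higher in the Sox12 vector library. In Treg, filamin A (Flna), which competes with talin for beta chains, had 187 and 157 FPKM, a change of -0.25 at percentile 3.38, and Dok2 had 129 and 121 FPKM.

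**Figure D4:**
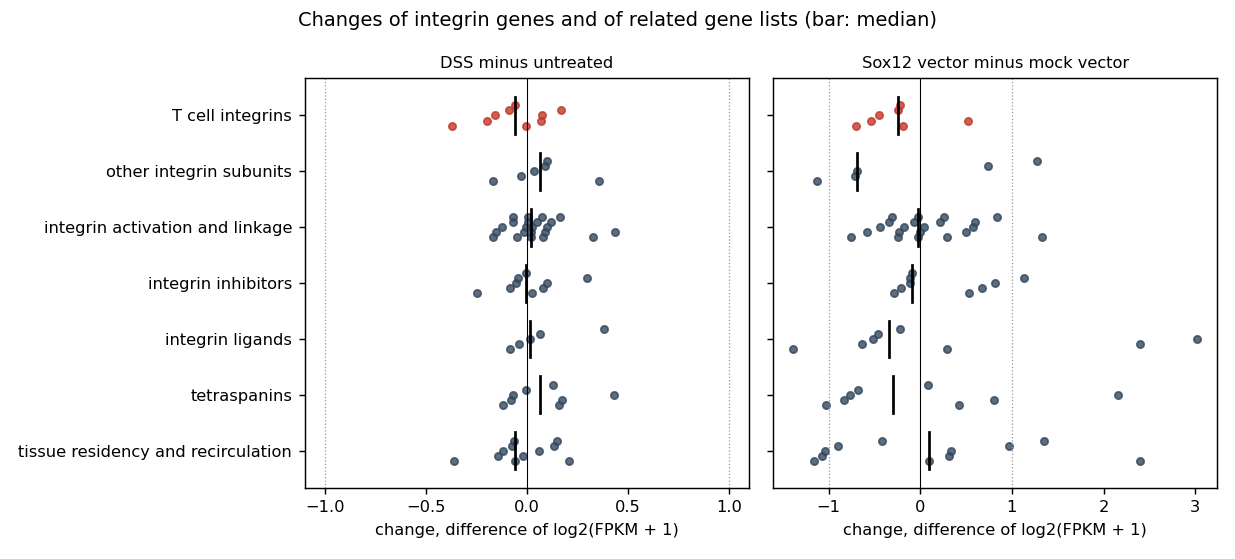
Change of each gene past the filter, as the difference of log2(FPKM + 1), in the integrin genes (red) and in 6 lists of related genes (dark), for DSS minus untreated Treg (left) and Sox12 minus mock vector (right). Black bars are medians and dotted lines mark a change of 1 in size. No integrin member reaches those lines in either panel, and the widest points on the right are Fn1 at 3.02 and Spp1 and Klf2 at 2.40.

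Tetraspanins, membrane proteins that associate with integrins, were higher in 4 and lower in 4 of 8 cases in both experiments. With the Sox12 vector Cd63 had 0.561 and 5.99 FPKM, a change of 2.16, and Cd81 had 176 and 86.2 FPKM, a change of -1.02. Cd63 passed the filter of the vector experiment through the Sox12 library alone. In Treg Cd53 had 181 and 180 FPKM and Cd37 163 and 156 FPKM. Cd63, counted as higher there, had 0.778 and 1.40 FPKM and was listed through the DSS library alone. Of the genes of tissue residency and recirculation, 11 passed the filter in each table, with 6 higher and 5 lower with the Sox12 vector and 4 higher and 7 lower with DSS. Klf2, a transcription factor of recirculating T cells, had 8.06 and 46.7 FPKM with the mock and the Sox12 vector. Its target S1pr1, the receptor for egress from lymphoid tissue, had 15.3 and 40.5 FPKM. Cd101 and Rgs1, which are expressed by resident T cells, were lower at 5.57 and 1.93 FPKM and at 109 and 51.5 FPKM. In Treg, Klf2 had 171 FPKM in the untreated and 157 FPKM in the DSS library.

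Markers of other cells also differed between the vector libraries. All 10 NK and CD8 T cell markers passed the filter and were higher with the Sox12 vector, with a sum of 155 and 515 FPKM. The change was at least 1 in 7 of them. Cd8a, at 0.580 and 5.58 FPKM, and Klrb1c, at 0.923 and 3.87 FPKM, passed through the Sox12 library alone. The direction of Cd8a and Klrb1c was therefore fixed by the filter. All 6 T cell markers measured were lower, with changes from -1.20 to -0.04 and a median of -0.29. With equal totals without the 20 highest genes, 1 of the 6 was higher. Of the plasma cell list 3 of 7 genes passed, with 1 higher and 2 lower and a sum of 243 and 129 FPKM. Xbp1, at 145 and 81.2 FPKM, and Irf4, at 96.7 and 45.3 FPKM, made up most of it. The higher gene, Sdc1, had 0.866 and 1.75 FPKM and passed through the Sox12 library alone. Igj, at 0.274 and 0.337 FPKM, and 2010001M09Rik, at 0.617 and 0.706 FPKM, were below the filter and not lower. Of the macrophage and monocyte list 3 of 9 genes passed and were higher, with a sum of 24.5 and 79.7 FPKM. Most of that sum was Fcer1g, at 18.8 and 67.1 FPKM, with Tyrobp at 2.33 and 9.18 FPKM and Cd68 at 3.04 and 3.24 FPKM. The list's other genes in the table were below the filter, with Csf1r at 0 in both libraries. The part of these cells in the values of the integrins was not tested.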

How the data were processed

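The 4 libraries were made from total RNA with a kit that keeps strand, per the labels' protocols. Cufflinks and the build mm9 are named, without versions, in the submitters' processing notes. Which aligner and annotation served, and whether strand was used, is not given in the sources used here. The authors deposited FPKM for the Treg libraries with a fold change (the ratio of DSS to untreated), and log2 values for the vector libraries, read from the values as log2(FPKM + 1) and turned back to FPKM here. The deposited ratio was not used further. Rows whose name had become a date in a spreadsheet were left out, 16 and 25 rows with 0.261% to 0.263% and 0.200% to 0.218% of the summed FPKM. Changes were taken only within a table, with a pseudocount of 1.

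The members and lists were chosen with earlier results of these data known. All 10 members are named. Of each other list and experiment, up to 4 genes with a change of at least 1 in size are named, or else the 2 of highest mean; exceptions are marked, and 1 gene that the rule takes is not reported here. The list of activation genes gives one gene under an older and a current symbol. The comparison with 500 genes of like level was added after the data were seen.

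The depth of the vector libraries was read from low FPKM values and transcript lengths of GENCODE vM21, whose build differs from mm9. It rests on 16 and 18 genes at the most frequent value, and on the length of the principal transcript, so counts of fragments are approximate. The rule of a change of at least 1 in size, and the direction of change, were tried on simulated vector libraries with known changes. The simulation held counting error alone. The depth, the intervals, the promoter search and the Treg values were not part of it. Python 3.11.15, numpy 2.4.6, pandas 2.3.3 and scipy 1.17.1 were used.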

Additional observations from a re-analysis of the deposited data

How the results depend on the processing

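Alternatives were pseudocounts of 0.1 and 5, no filter and a mean of at least 5 FPKM, and 3 scalings (the median change set to 0, equal 75th percentiles, and equal totals without the 20 highest genes). No member changed direction under any of these that applied to it. The number of members higher with the Sox12 vector was 1, and 4 without the filter, because the 3 members below 1 FPKM were counted. The other counts of members and their median changes stayed within 1.5 times or 0.1 of the values given. The related and marker lists were put through the same alternatives after the data were seen, and were less stable: of their medians 166 values stayed, 24 moved and 18 changed sign, and of their counts 379 stayed within 1.5 times and 37 did not. The medians that changed sign in Treg were those of the integrin ligands (-0.013 at a mean of at least 5 FPKM, and -0.035, -0.020 and -0.0085 under the 3 scalings in the order above), of integrin activation and linkage (-0.029, -0.016 and -0.0036 under the scalings), and at a mean of at least 5 FPKM of the tetraspanins (-0.0043) and the macrophage and monocyte list (-0.104). With the vectors and no filter they were those of the other integrin subunits (0.024), integrin inhibitors (0.032), B cell (0.089), plasma cell (0.070), macrophage and monocyte (-0.00083) and erythroid lists (0.0034). At a mean of at least 5 FPKM they were the other integrin subunits (1.27) and tissue residency and recirculation (-0.16), and with equal totals integrin activation and linkage (0.031). The sum of the alpha partners of Itgb1 with the Sox12 vector over that with the mock vector was 1.04 for the members and 0.933 for all partners in the table, a comparison also added after the data were seen. With a pseudocount of 0.1 the change of Itga1 with the Sox12 vector was 0.62 in place of 0.10, and that of Itga2 in Treg was 0.30 in place of 0.17. Over all genes, 20 were higher and 8 lower with DSS by a change of at least 1 in size. With pseudocounts of 0.1 and 5 the numbers were 39 and 20, and 6 and 3. With the Sox12 vector they were 525 and 207 with the pseudocount of 1, 682 and 335 with 0.1, and 222 and 94 with 5. No paired analysis was possible because each group has 1 library and no result comes from a test. Leaving out a library was not possible for the same reason. Counting limits only Itga1, Itga2 and Itgae in the vector libraries, and the depth of the Treg libraries is unknown.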
